A study of Mus musculus with 12 samples.

Results

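The oxidative phosphorylation (OXPHOS) subunits that are encoded in the nucleus were described across RNA sequencing of bone marrow-derived macrophages (BMDMs). Members were the genes whose symbol starts with Nduf and a letter from a, b, c, s or v plus a number, is Sdha, Sdhb, Sdhc or Sdhd, or starts with Uqcr, with Cox and a number from 4 to 8, or with Atp5. Symbols containing -ps were left out, and a member had to reach 1 FPKM (fragments sequenced per kilobase of gene, relative to the size of the library) in 3 or more of the 12 libraries. Of 55335 genes in the table, 84 had such a symbol and 79 passed the FPKM limit: 37 by name in complex I, 4 in complex II, 8 in complex III, 13 in complex IV and 17 in complex V. BMDMs are macrophages grown in culture from mouse bone marrow, and the study used them to ask what the NLRP3 inflammasome changes in macrophages at an injured tendon insertion. The 4 groups had 3 libraries each: wild-type cells without stimulation (wild-type control), wild-type cells given lipopolysaccharide (LPS) and then ATP, and Nlrp3-/- cells without and with the same stimulation. LPS primes the inflammasome and ATP triggers it. The sample labels put LPS at 4 hours and ATP at 30 minutes, whereas the methods describe 200 ng/ml LPS for 12 hours followed by 3 mM ATP for 2 hours, so the stimulation time of these libraries is uncertain. Per the methods, marrow came from C57BL/6 mice at 8 weeks and was grown for 7 days in 40 ng/ml macrophage colony-stimulating factor. The paper's discussion refers to the Nlrp3 knockout as global, meaning in all cells of the mouse.

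OXPHOS takes place in the inner mitochondrial membrane. Complex I (NADH dehydrogenase) and complex II (succinate dehydrogenase, which is also an enzyme of the TCA cycle) pass electrons to ubiquinone, complex III hands them to cytochrome c, complex IV reduces oxygen, and complex V (ATP synthase) uses the resulting proton gradient to make ATP. Most subunits are encoded in the nucleus and imported, while a small set in complexes I, III, IV and V is encoded by mitochondrial DNA. Macrophages given LPS are known to shift from OXPHOS toward glycolysis, and succinate oxidation by complex II has been linked to their production of interleukin-1β.

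FPKM is the unit that the authors deposited. It holds no read counts, so depth in reads is unknown. The smallest steps between low FPKM give depth in relative terms, from 1 in wild-type control replicate 1 to 1.22 in wild-type control replicate 3. Pearson's r of log2(FPKM + 1) over 12622 tested genes, which are not independent replicates, was 0.990 to 0.993 within a group. The paper says in general that its sample sizes count independent replicates, but neither it nor the labels say whether the 3 libraries of a group came from separate animals or cultures. So p-values measure the spread between these libraries, which may be technical. Group differences were fitted by limma on the scale of log2(FPKM + 1), where changes of genes near 0 FPKM come out smaller than they are. A gene was called at a Benjamini-Hochberg adjusted p under 0.05 over all 12622 genes, and a call past 2-fold also needed a log2 difference of at least 1 in size.

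The label checks came out as follows. Nlrp3 was 9.24, 9.71 and 10.1 FPKM in wild-type control and 32.1, 33.02 and 33.6 FPKM with LPS+ATP, and was listed at 0 in the 6 Nlrp3-/- libraries. All 10 macrophage markers on a fixed list were detected, with Lyz2 as the most abundant, and the list summed to between 19030 and 21180 FPKM in the control libraries and between 11090 and 11800 FPKM in those with LPS+ATP. Lyz2 made up most of the sum, with means of 18460 and 9471 FPKM in wild-type control and with LPS+ATP, while Adgre1 (236.8 and 460.3 FPKM), Fcgr1 (51.23 and 203.8 FPKM) and Cd14 (110.7 and 530 FPKM) went the other way. The part of these changes in the members' results was not tested. The 10 LPS-response markers, led by Acod1, summed to 23.73, 25.25 and 24.16 FPKM in wild-type control and to 9760, 9777 and 9760 FPKM with LPS+ATP. The sums were 52.98, 53.52 and 52.23 FPKM in Nlrp3-/- control, where 9 of the 10 were higher than in wild-type control, and 6482, 6482 and 6507 FPKM in Nlrp3-/- with LPS+ATP. The level of these markers thus differed between genotypes in both states, and its part in the members' results was not tested. The genotypes also differed in sex: Xist was 56.3, 51.1 and 54.1 FPKM in Nlrp3-/- control and at most 0.0416 FPKM in a wild-type library, whereas Uty, Kdm5d, Eif2s3y and Ddx3y, which lie on the Y chromosome, were at 0 in each of the 6 Nlrp3-/- libraries. The methods also name different sources for the mice, the Shanghai Laboratory Animal Center for wild-type and Cyagen for Nlrp3-/-. For the members, effects of genotype, of donor sex and of mouse source cannot be told apart.

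In wild-type control BMDMs the 79 members together made up 0.722%, 0.780% and 0.798% of the FPKM of a library, and 0.539%, 0.563% and 0.555% with LPS+ATP. In Nlrp3-/- libraries the shares were 0.789%, 0.776% and 0.774% in control and 0.604%, 0.595% and 0.627% with LPS+ATP. In both genotypes the control shares lay above all stimulated shares. Per kilobase, the most abundant member over the 12 libraries was Sdhd in complex II (53.4 FPKM), Uqcrfs1 in complex III (43.1 FPKM), Cox6a1 in complex IV (92.8 FPKM) and Atp5a1 in complex V (125 FPKM). Atp5a1 and Atp5b, the α and β subunits that form the catalytic head of ATP synthase, were the 2 members with the highest means. At the other end, Cox6a2 (0.928 FPKM), Ndufb2 (1.084 FPKM), Cox4i2 (1.45 FPKM) and Atp5s (1.46 FPKM) lay just inside the limit.

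Several subunits exist as isoforms made by different genes, and the macrophages held mostly the common forms. In wild-type control, Cox6a1, the widely expressed form, stood at 101 ± 9.31 FPKM (SD, n = 3), and Cox6a2, the form of heart and skeletal muscle, at 0.529 ± 0.262 FPKM (SD, n = 3). Of the other muscle forms, Cox7a1 was just outside the limit, with at least 1 FPKM in 2 libraries (mean 0.566 FPKM), and Cox8b was listed at 0 in all 12 libraries. Cox7b2 and Cox8c were also listed at 0 throughout, and Cox6b2 was at most 0.421 FPKM. Cox6b1 was 79.8 ± 5.24 FPKM and Cox8a 49.9 ± 3.13 FPKM in wild-type control (SD, n = 3 each). Cox4i1, the common form of subunit 4, was 95.4 ± 24.8 FPKM (SD, n = 3), against 0.645 ± 0.348 FPKM (SD, n = 3) for Cox4i2, a form known for its regulation by oxygen. The muscle genes Actc1, Ckm, Myh7 and Tnnt2 were at most 0.0407 FPKM in any group mean.

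With LPS+ATP, transcripts of OXPHOS subunits were mostly lower. In wild-type BMDMs 66 of the 79 members were called lower, 83.5% against 53.1% of all tested genes, and 2 were called higher, against 23.3% of all genes. Among Nlrp3-/- libraries 67 members were called lower (84.8%, against 53.8% of all genes), and 0 were called higher by limma, against 20.6% of all genes, with 0 also at an unadjusted p under 0.05. Of the 66 and 67 members, 63 were lower in both genotypes. No share of all tested genes was counted for that overlap, so it is not read as a trait of the members. The median log2 difference of the members was -0.50 in wild-type and -0.39 in Nlrp3-/- BMDMs, beside -0.26 and -0.24 over all tested genes.

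The share of genes called lower depends on the scaling between libraries. Median-ratio scaling shifted the all-gene median by 0.25 for stimulation of wild-type and by 0.23 for stimulation of Nlrp3-/- BMDMs, to -0.01 in each. Relative to that, 38 members (48.1%) were lower and 8 higher in wild-type BMDMs, beside 35.7% and 35.4% of all genes. For Nlrp3-/- BMDMs the counts were 32 (40.5%) lower and 3 higher, beside 33.0% and 32.6% of all genes. The median of the members was then -0.19 and -0.13, and 27 members were lower in both genotypes, again without a counted share of all genes. A lower level of RNA per cell and fewer cells of a type with that RNA cannot be told apart in bulk samples. Past 2-fold there were 4 members in wild-type BMDMs, against 19.4% of all genes, and 1 in Nlrp3-/- BMDMs, against 14.8%, on the scale of log2(FPKM + 1). With a pseudocount of 0.1 these counts were 8 and 2. The lowest member differences after median-ratio scaling were -0.85 and -0.76, short of 2-fold. Without wild-type control replicate 3, or without wild-type LPS+ATP replicate 1, 4 members were higher in wild-type BMDMs, and 2 were past 2-fold in Nlrp3-/- BMDMs without Nlrp3-/- control replicate 1 or Nlrp3-/- LPS+ATP replicate 3.

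**Figure D1:**
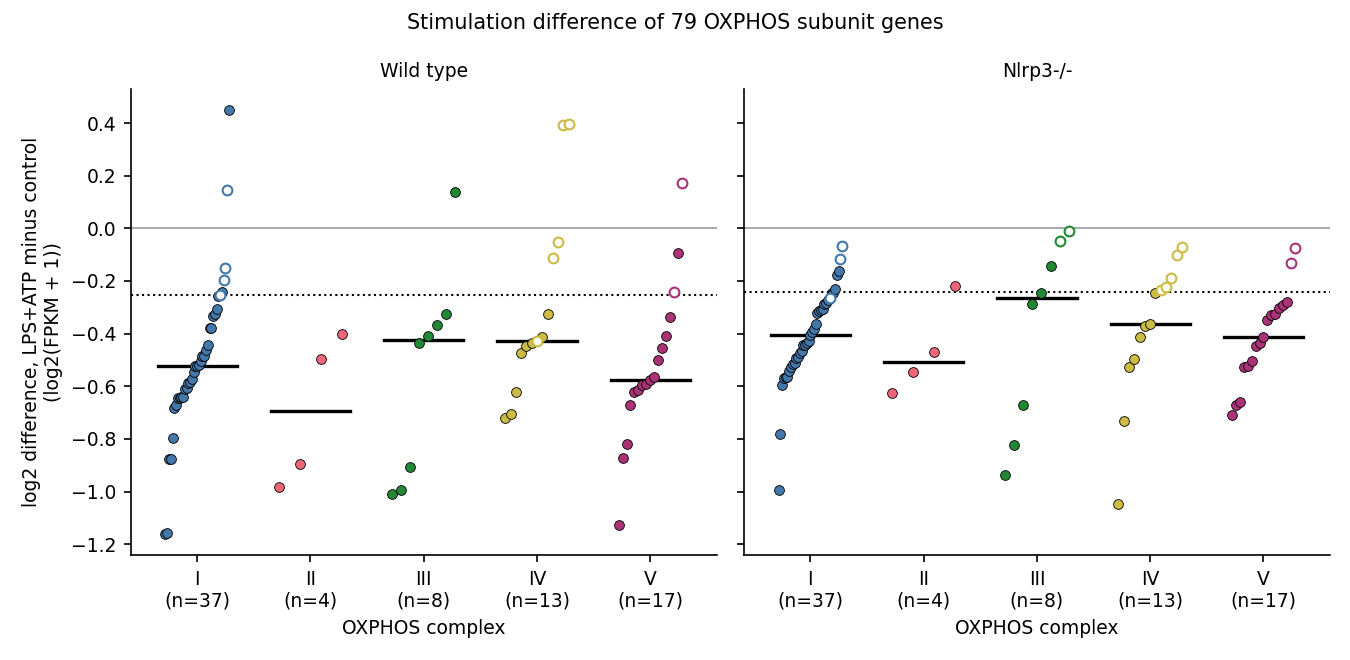
Log2 difference with LPS+ATP of each of the 79 members on the log2(FPKM + 1) scale, by complex and genotype. Filled points passed an adjusted p under 0.05 by limma, open points did not, black bars are complex medians, and the dotted line is the median of all tested genes (-0.26 in wild type and -0.24 in Nlrp3-/-), below which all 10 complex medians lie on the deposited scale. After median-ratio scaling the medians of complex III were -0.10 and 0.02.

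Complex I held 32 members called lower and 1 called higher in wild-type BMDMs, and 34 called lower in Nlrp3-/- BMDMs, with medians of -0.52 and -0.40. After median-ratio scaling the counts were 20 lower and 3 higher in wild-type and 15 lower in Nlrp3-/- BMDMs. Counts by complex stand beside 53.1% and 53.8% of all tested genes lower, or 35.7% and 33.0% after scaling. The largest falls were of Ndufb10 and Ndufb11, supernumerary subunits of the membrane arm that pumps protons. Ndufb10 (ENSMUSG00000040048) was 28.6, 22.6 and 29.6 FPKM in wild-type control and 11.4, 12.8 and 10.1 FPKM with LPS+ATP, a log2 difference of -1.16 (-0.85 after median-ratio scaling, adjusted p = 4.23e-05 by limma). The Nlrp3-/- values were 28.6, 20.8 and 29.5 FPKM in control and 16.1, 11.9 and 16.5 FPKM with LPS+ATP, a log2 difference of -0.78 (adjusted p = 9.60e-04 by limma). All stimulated libraries of each genotype lay below all its control libraries, and the second library of Nlrp3-/- control was the low one of its group.

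Ndufb11 (ENSMUSG00000031059), which is X-linked, was 29.9, 29.5 and 31.8 FPKM in wild-type control and 10.7, 15.3 and 13.6 FPKM with LPS+ATP, a log2 difference of -1.16 (-0.85 after median-ratio scaling, adjusted p = 5.04e-07 by limma). Its Nlrp3-/- libraries were at 29.1, 30.6 and 31.1 FPKM and 14.9, 14.3 and 14.8 FPKM, a log2 difference of -0.99 (adjusted p = 2.31e-06 by limma). Control and stimulated libraries did not overlap in either genotype, and the interaction term of 0.17 was not called (adjusted p = 0.407 by limma). Its exons overlap those of Rbm10 on the other strand, and Rbm10 had stimulation differences of -0.36 and -0.21. The X-linked Ndufa1, another membrane-arm subunit, had log2 differences of -0.52 and -0.36, neither of them called after median-ratio scaling. On the deposited scale Ndufb11 and Ndufa1 had no called difference between genotypes in either state, while after scaling Ndufa1 was lower in Nlrp3-/- control (-0.26).

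Core subunits of complex I carry the electron path from NADH to ubiquinone. Ndufv1, which binds NADH, had differences of -0.38 and -0.25, the latter turning to 0.02 with median-ratio scaling, Ndufv2 of -0.64 and -0.56, and Ndufs1 of -0.52 and -0.49. Ndufs8, an iron-sulfur subunit near the ubiquinone site, had -0.88 and -0.53. Ndufs3 was called in neither genotype on the deposited scale, at 15.98, 16.8 and 16.3 FPKM in wild-type control and 14.8, 14.2 and 14.9 FPKM with LPS+ATP, a log2 difference of -0.15 that turned to 0.16, and was called higher, after median-ratio scaling. That scaling also ended the calls of Ndufv1 in both genotypes and of Ndufs8 and Ndufs7 in Nlrp3-/- BMDMs. Ndufs7, an iron-sulfur subunit at the ubiquinone site, fell less in Nlrp3-/- BMDMs, with a term for the interaction of 0.27 (adjusted p = 0.00963 by limma). It was 15.4, 16.3 and 15.03 FPKM in wild-type control, 10.2, 10.1 and 9.87 with LPS+ATP, 15.2, 15.3 and 14.2 in Nlrp3-/- control and 11.9, 12.4 and 11.3 with LPS+ATP. The control libraries of both genotypes overlapped, and the stimulated Nlrp3-/- libraries were all above the stimulated wild-type ones. Median-ratio scaling changed this: Ndufs7 was then called lower in Nlrp3-/- control (-0.20) and not called between genotypes with LPS+ATP (0.04).

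Complex I members with a called positive interaction term, meaning a smaller fall in Nlrp3-/- BMDMs, also included Ndufb7 (0.37), Ndufa8 (0.32) and Ndufb8 (0.24). Of these, Ndufb8 was not called after median-ratio scaling (0.21). Ndufb7 and Ndufa8 lie on the intermembrane-space face of the complex. Ndufa8 was 42.1, 40.8 and 44.1 FPKM in wild-type control and 29.1, 28.9 and 31.99 FPKM with LPS+ATP, and 42.1, 43.9 and 42.4 and 38.7, 35.03 and 40.96 FPKM in Nlrp3-/- BMDMs. The fall in Nlrp3-/- BMDMs, -0.16 on the deposited scale, became 0.12 after median-ratio scaling, so its direction there rests on the scaling. Ndufa4, which is grouped here by its name but is now placed in complex IV, had log2 differences of -0.61 and -0.29, the latter not called after scaling (-0.02).

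Ndufa4l2 (ENSMUSG00000040280), a relative of Ndufa4 that is known to be induced by hypoxia, went the other way. It was 1.86, 1.82 and 2.38 FPKM in wild-type control, 3.74, 2.77 and 2.88 with LPS+ATP, 7.90, 9.15 and 6.73 in Nlrp3-/- control and 6.13, 6.40 and 6.65 in Nlrp3-/- with LPS+ATP. It rose with stimulation in wild-type BMDMs (log2 difference 0.45, adjusted p = 0.00391 by limma) and had a difference of -0.26 in Nlrp3-/- BMDMs (adjusted p = 0.0561 by limma). The interaction term of -0.71 (adjusted p = 0.00729 by limma) was the only called negative one among the members, and was -0.70 after median-ratio scaling. Every Nlrp3-/- library was above every wild-type library. Its exons overlap those of Shmt2 on the opposite strand, and the strand of the counting is not stated. Shmt2 itself was 9.34 and 10.3 FPKM in wild-type and 22.9 and 31.1 FPKM in Nlrp3-/- BMDMs (means of control and LPS+ATP, n = 3).

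All 4 complex II members were called lower with stimulation in both genotypes, with medians of -0.70 in wild-type and -0.51 in Nlrp3-/- BMDMs. After median-ratio scaling Sdhb was not called in either genotype, with -0.08 and 0.07, and the other 3 were lower in both. Sdha (ENSMUSG00000021577), the flavoprotein that oxidizes succinate, was 61.8, 66.3 and 65.7 FPKM in wild-type control and 31.9, 31.96 and 32.6 FPKM with LPS+ATP. The log2 difference was -0.98 (standard error 0.03, adjusted p = 1.42e-10 by limma), or -0.66 after median-ratio scaling. For Nlrp3-/- BMDMs the values were 56.8, 57.4 and 56.6 FPKM in control and 38.5, 38.01 and 39.6 FPKM with LPS+ATP, a log2 difference of -0.55 (adjusted p = 3.56e-08 by limma). The 4 groups did not overlap: wild-type control was highest, then Nlrp3-/- control, Nlrp3-/- LPS+ATP and wild-type LPS+ATP. The term for the interaction, 0.44 (adjusted p = 3.97e-05 by limma), stayed called after median-ratio scaling, at 0.40.

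Sdhc and Sdhd anchor the complex in the membrane, and Sdhb carries its iron-sulfur clusters. Sdhc was 39.8, 37.4 and 40.6 FPKM in wild-type control, 21.2, 20.3 and 20.3 with LPS+ATP, 33.3, 35.4 and 37.2 in Nlrp3-/- control and 22.1, 23.3 and 22.2 with LPS+ATP. Its falls were -0.90 and -0.63, with an interaction term of 0.27 (adjusted p = 0.0103 by limma). Sdhd had falls of -0.50 and -0.47, and its interaction term of 0.03 (-0.01 with scaling) was not called (adjusted p = 0.82 by limma). Sdhb had -0.40 and -0.22, and an interaction term of 0.18 that missed the threshold (adjusted p = 0.0573 by limma).

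Complex III had 7 members called lower and 1 called higher in wild-type BMDMs and 6 called lower in Nlrp3-/- BMDMs, with medians of -0.42 and -0.27. Median-ratio scaling left 3 lower in each genotype, and 1 higher in wild-type and 2 in Nlrp3-/- BMDMs. The 3 lower ones were the small membrane subunits Uqcr10 and Uqcr11 and the hinge protein Uqcrh, which helps cytochrome c1 to bind cytochrome c. Uqcrh (ENSMUSG00000063882) was 32.6, 32.6 and 37.4 FPKM in wild-type control and 16.2, 17.6 and 15.6 FPKM with LPS+ATP, a log2 difference of -1.01 (-0.69 after median-ratio scaling, adjusted p = 9.04e-08 by limma). It stayed called but was short of 2-fold after either scaling, with TPM (-0.99), and without wild-type control replicate 3 (-0.94), wild-type LPS+ATP replicate 3 (-0.97) or, narrowly, wild-type LPS+ATP replicate 1. Its Nlrp3-/- values were 37.4, 37.3 and 37.1 FPKM and 17.3, 19.6 and 20.1 FPKM, a log2 difference of -0.94 (adjusted p = 2.20e-07 by limma). Control and stimulated libraries did not overlap in either genotype.

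Complex III has 2 large core proteins on the matrix side, Uqcrc1 and Uqcrc2. Uqcrc2 was 38.2, 34.96 and 37.1 FPKM in wild-type control and 41.2, 40.8 and 39.7 FPKM with LPS+ATP, a rise of 0.14 (adjusted p = 0.00637 by limma). Its Nlrp3-/- libraries overlapped, at 39.00, 37.7 and 40.1 FPKM and 39.3, 37.7 and 38.9 FPKM, a difference of -0.01 (adjusted p = 0.826 by limma). With median-ratio scaling Uqcrc2 was higher in both, by 0.46 and 0.28. Uqcrc1 fell in wild-type BMDMs (-0.41, not called after scaling) and by -0.14 in Nlrp3-/- BMDMs, where it was called lower. Median-ratio scaling turned Uqcrc1 there to 0.14, called higher. Its interaction term was 0.27 (adjusted p = 0.0238 by limma), and was no longer called after median-ratio or upper-quartile scaling, or without wild-type control replicate 2 or 3, wild-type LPS+ATP replicate 3, or Nlrp3-/- control replicate 1 or 3. The term stayed between 0.24 and 0.26 without each of those libraries.

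In complex IV, 8 of the 13 members were called lower in each genotype and 0 higher by limma, also at an unadjusted p under 0.05, with medians of -0.43 and -0.36. The share lower was near that of all tested genes, 53.1% in wild-type and 53.8% in Nlrp3-/- BMDMs, while 23.3% and 20.6% were higher. After median-ratio scaling 2 were lower and 2 higher in wild-type BMDMs, and 3 were lower in Nlrp3-/- BMDMs. Of all genes, 35.7% and 33.0% were then lower and 35.4% and 32.6% higher. Cox7b, which is X-linked, and Cox6c were the members lower in wild-type BMDMs after scaling. Cox7b was 18.2, 20.9 and 24.8 FPKM in wild-type control and 12.6, 11.4 and 13.8 FPKM with LPS+ATP, a log2 difference of -0.71 (adjusted p = 6.26e-05 by limma), and -0.53 in Nlrp3-/- BMDMs. Cox5a and Cox7a2 were called in neither genotype, with log2 differences of -0.11 and -0.10, and of -0.05 and -0.07. All 4 values turned positive after median-ratio scaling, between 0.18 and 0.27, and that of Cox7a2 in wild-type BMDMs was called higher.

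Some members varied widely within a group. The highest library was up to 3.84 times the lowest for Cox4i2 and 2.41 times for Cox6a2, with means of 1.45 and 0.928 FPKM, 2.09 times for Atp5k, 1.81 for Cox4i1, 1.79 for Cox8a and 1.70 for Cox7a2l. Cox8a was 36.9, 39.5 and 66.03 FPKM in the 3 Nlrp3-/- LPS+ATP libraries. Cox7a2l (ENSMUSG00000024248), a relative of Cox7a2 that has been linked to supercomplexes of complexes III and IV, was 71.1, 115 and 70.6 FPKM in wild-type control and 42.1, 67.95 and 44.1 FPKM with LPS+ATP. Nlrp3-/- libraries were at 113, 115 and 115 FPKM in control and 38.9, 65.9 and 64.2 FPKM with LPS+ATP, a fall past 2-fold (log2 difference -1.05, adjusted p = 0.00243 by limma). It stayed called but was short of 2-fold with TPM (-0.99), after median-ratio (-0.76) or upper-quartile (-0.92) scaling, and without Nlrp3-/- LPS+ATP replicate 1 (-0.80). The fall of Cox7a2l in wild-type BMDMs, -0.72 (adjusted p = 0.0191 by limma), lost the call after either scaling, without the filter on FPKM, and without wild-type control replicate 2 or wild-type LPS+ATP replicate 1 or 3, where it was -0.49, -0.60 and -0.63. Replicate 2 stood above the other libraries in both wild-type groups. Cox4i1 jumped likewise, with 66.9, 108 and 112 FPKM in wild-type control, 65.97, 69.01 and 71.7 with LPS+ATP, 112, 103 and 62.00 in Nlrp3-/- control and 74.2, 43.5 and 47.4 with LPS+ATP. Cox4i1 was called lower in Nlrp3-/- BMDMs only (-0.73, adjusted p = 0.0251 by limma), which median-ratio scaling ended (-0.44), and its groups overlapped in both genotypes. The difference between the genotypes in that fall was not called (interaction term -0.30, adjusted p = 0.595 by limma). Cox4i1 overlaps Emc8 on the other strand, while no near copy or overlap was found for Cox7a2l.

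In complex V, 15 of 17 members were called lower in each genotype, with medians of -0.58 and -0.41, and 10 and 8 after median-ratio scaling. The c ring, which turns as protons pass, is encoded by 3 genes, Atp5g1, Atp5g2 and Atp5g3, that give the same mature protein. Atp5g2 (ENSMUSG00000062683) was 38.6, 43.4 and 41.9 FPKM in wild-type control and 17.4, 18.6 and 19.1 FPKM with LPS+ATP, a log2 difference of -1.13 (-0.81 after median-ratio scaling, adjusted p = 1.45e-08 by limma). Its Nlrp3-/- values were 39.9, 41.1 and 36.05 FPKM and 23.4, 25.8 and 23.9 FPKM, a log2 difference of -0.66 (adjusted p = 2.06e-06 by limma). The control groups overlapped, and the stimulated Nlrp3-/- libraries were all above the stimulated wild-type ones. Median-ratio scaling made Atp5g2 called lower in Nlrp3-/- control (-0.23) and kept it higher with LPS+ATP (0.21). Its interaction term, 0.47 (adjusted p = 0.00226 by limma), was the largest positive one among the members. Atp5g3 fell by less, -0.62 and -0.41, and Atp5g1, the least abundant of the 3, had -0.46 and -0.30.

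Atp5a1 was 145, 153 and 148 FPKM in wild-type control, 97.7, 103 and 96.99 with LPS+ATP, 143, 137 and 144 in Nlrp3-/- control and 113, 113 and 111 with LPS+ATP, with falls of -0.58 and -0.33 and an interaction term of 0.25 (adjusted p = 0.00238 by limma). Atp5b, its partner in the catalytic head, was 106, 115 and 111 FPKM in wild-type control, 103, 107 and 102 with LPS+ATP, 124, 122 and 122 in Nlrp3-/- control and 118, 116 and 115 with LPS+ATP. Stimulation differences of Atp5b were -0.09, called lower, and -0.07, not called, which became 0.24 and 0.22, both called higher, after median-ratio scaling. After the same scaling Atp5a1 was at -0.25 in wild-type, where it was called lower, and at -0.04 in Nlrp3-/- BMDMs, where it was not called. In the central stalk, Atp5c1 had -0.57 and -0.43, Atp5d -0.50 and -0.33, and Atp5e, the largest fall of the complex in Nlrp3-/- BMDMs, -0.59 and -0.71. In the peripheral stalk, Atp5h had -0.82 and -0.52 with an interaction term of 0.30 (adjusted p = 0.0181 by limma). Atp5o, also there, had -0.61 and -0.45 with a term of 0.17 (adjusted p = 0.0362 by limma) that was not called after median-ratio scaling (0.13). Atp5s and Atp5sl carry the name without being constant subunits. Atp5sl, which helps to assemble complex I, had -0.67 and -0.35. Scaling also ended the calls of Atp5d and Atp5g1 in both genotypes and those of Atp5g3 and Atp5sl in Nlrp3-/- BMDMs.

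**Figure D2:**
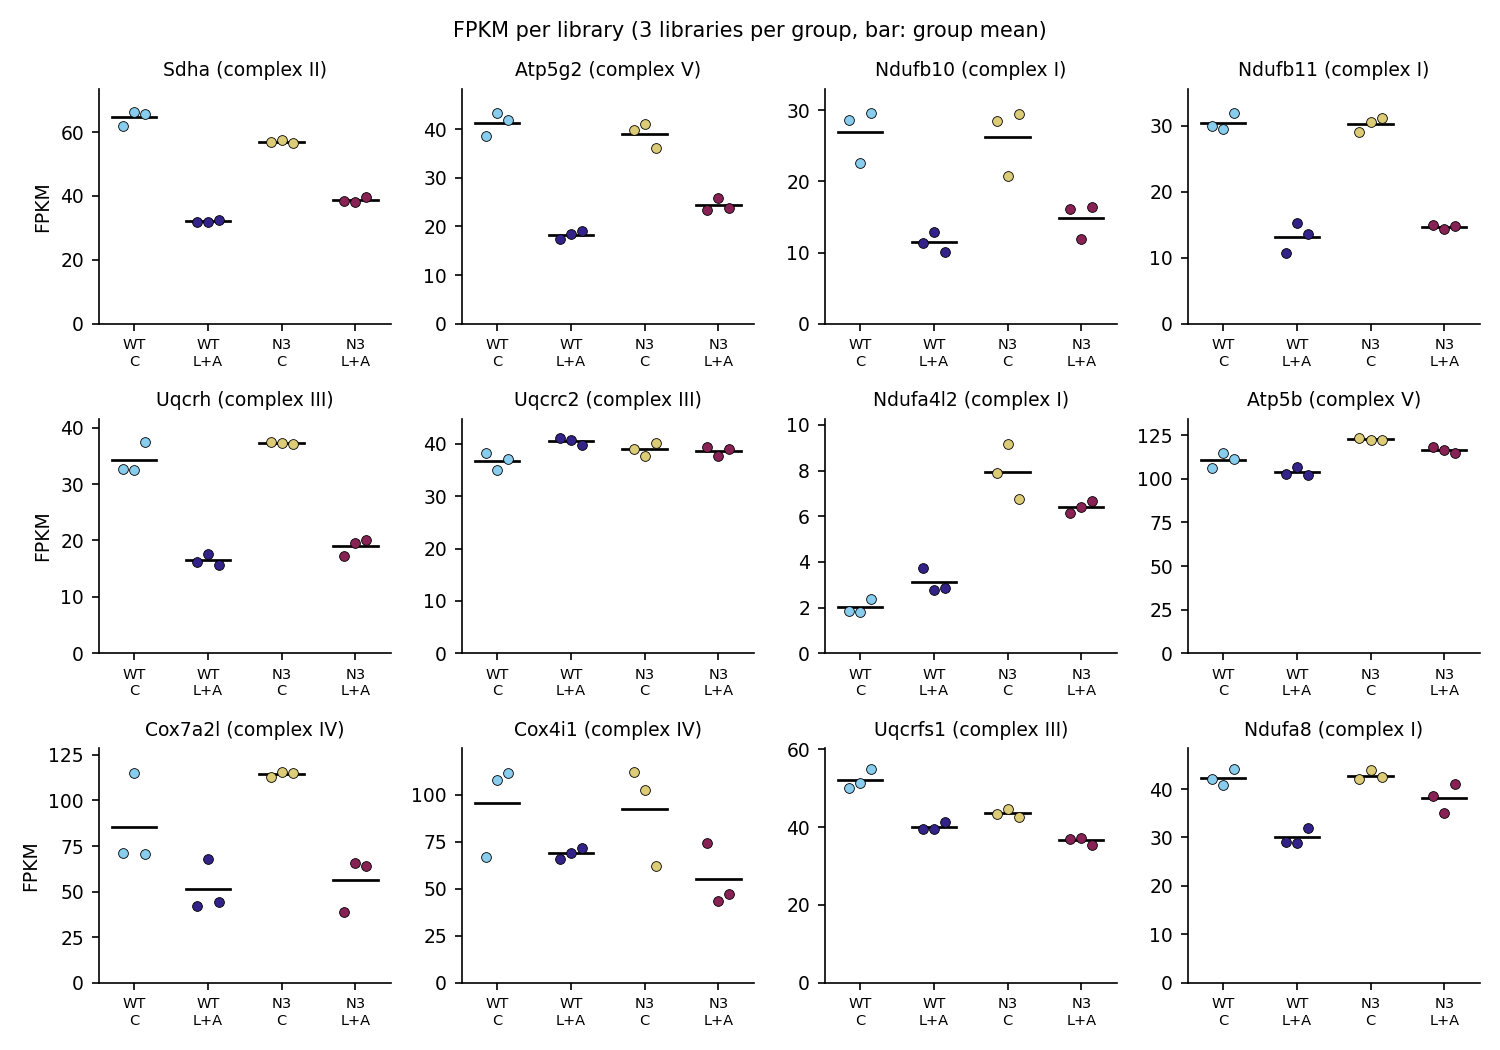
FPKM in every library for 12 members, with 3 points and a bar at the mean per group (C, control; L+A, LPS+ATP; WT, wild type; N3, Nlrp3-/-). Sdha falls from between 61.8 and 66.3 to between 31.9 and 32.6 in wild type and Uqcrc2 does not fall, Ndufa4l2 separates the genotypes, and Cox7a2l and Cox4i1 scatter within groups.

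Promoter sequence is shown for members past 2-fold with stimulation and for Sdha and Ndufa8, 2 members whose fall differed between genotypes. Of the 79, 65 had a window in the RefSeq promoter table, covering 250 bases before to 50 after the start. Both strands were searched for the core of NRF1 (GCGCATGC), whose reverse complement overlaps it in places, an ETS core bound by GABPA (CCGGAAGT), a YY1 core (AAGATGGC) and a TATA box (TATAAA). The first 3 factors are known regulators of OXPHOS genes. The NRF1 core was in the windows of 10 members (15.4%), against 6.08% of 8959 tested genes and 3.05% of all 27025 genes with a window. The YY1 core was in 11 (16.9%), against 5.57% and 3.19%. The ETS core was in 5 (7.69%), against 9.76% and 4.31%, and the TATA box in 5 (7.69%), against 8.65% and 15.7%. The 100 bases upstream of the start are printed 5′ to 3′ on the strand of the gene, all on the minus strand of GRCm38.p6, with matches in capitals. A match is a string of letters and not a shown binding site.
Ndufb10: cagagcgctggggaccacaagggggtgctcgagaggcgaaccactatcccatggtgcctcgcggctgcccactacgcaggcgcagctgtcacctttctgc
Ndufb11: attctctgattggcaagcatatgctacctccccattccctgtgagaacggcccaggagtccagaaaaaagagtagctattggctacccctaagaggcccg
Ndufa8: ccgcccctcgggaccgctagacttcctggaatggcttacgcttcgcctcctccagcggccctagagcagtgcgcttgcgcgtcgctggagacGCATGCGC
Sdha: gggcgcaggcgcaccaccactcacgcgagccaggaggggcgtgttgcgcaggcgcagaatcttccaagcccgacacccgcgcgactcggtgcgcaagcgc
Uqcrh: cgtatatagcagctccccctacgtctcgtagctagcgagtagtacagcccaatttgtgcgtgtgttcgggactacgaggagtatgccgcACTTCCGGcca
Cox7a2l: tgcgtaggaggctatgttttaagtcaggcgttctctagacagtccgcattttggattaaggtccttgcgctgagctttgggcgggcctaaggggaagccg
Atp5g2: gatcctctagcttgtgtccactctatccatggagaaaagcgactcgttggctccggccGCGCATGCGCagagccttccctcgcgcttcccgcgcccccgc
In GRCm38.p6, a build other than the GRCm39 named in the submitters' processing notes, these lie at chr17:24724424-24724523 (Ndufb10), chrX:20617620-20617719 (Ndufb11), chr2:36049339-36049438 (Ndufa8), chr13:74350241-74350340 (Sdha), chr4:116075071-116075170 (Uqcrh), chr17:83514334-83514433 (Cox7a2l) and chr15:102671048-102671147 (Atp5g2). Atp5g2 and Ndufa8 hold the NRF1 core and Uqcrh holds the ETS core, while the 4 other stretches hold none of the 4 strings.

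The fall with stimulation was compared between genotypes by the interaction term. A positive term means a smaller fall or a larger rise with stimulation in Nlrp3-/- BMDMs, and not a higher level there. It was called for 13 members (16.5%, against 14.7% of all tested genes), and a negative one for 1 (1.27%, against 13.0%). By limma 0 terms were past 2-fold, also at an unadjusted p under 0.05, against 2.15% of all genes. The number of positive terms was thus near the background and that of negative terms below it. The members' median was 0.13, beside 0.02 over all genes, and 62 of 79 fitted terms were above 0. Of all tested genes, 46.2% had a term below 0. Median-ratio scaling left 57 members above 0 and 50% of all genes below 0. By complex, 5 positive terms were in complex I, 2 in complex II, 1 in complex III, 0 in complex IV and 5 in complex V. The term shares its libraries with the stimulation and genotype comparisons, so it is no separate evidence from them. After median-ratio scaling 10 of the 13 stayed called, without Uqcrc1, Ndufb8 and Atp5o, and 10 positive and 2 negative terms were called in all. These were 12.7% and 2.53% of the members, beside 13.1% and 14.3% of all tested genes. Without wild-type control replicate 2, 8 positive terms were called, and 2 and 3 negative ones were called without wild-type control replicate 1 and wild-type LPS+ATP replicate 1. Across the 79 members, which are not independent replicates, Pearson's r of the stimulation differences in the 2 genotypes, which share no library, was 0.743, against 0.919 over all tested genes.

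**Figure D3:**
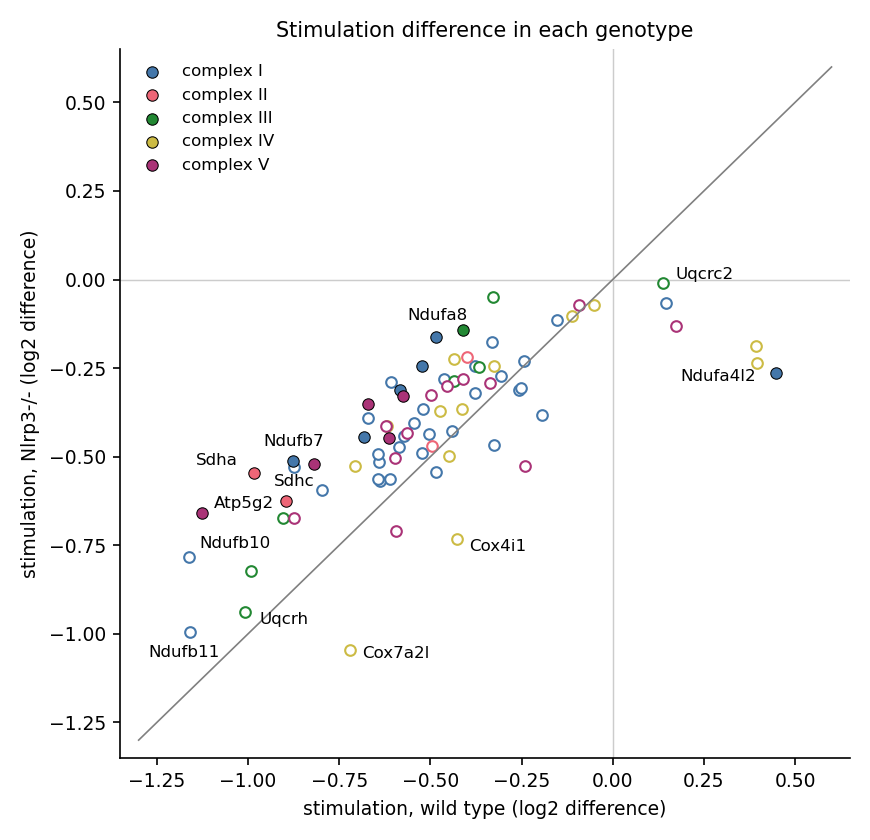
Log2 difference with LPS+ATP in wild-type (x axis) against Nlrp3-/- BMDMs (y axis) for the 79 members, coloured by complex, with the line of equal change. Filled points have a called interaction term, and 62 members lie above the line, among them Sdha and Atp5g2, while Ndufa4l2 lies far below it. Of all tested genes, 46.2% have an interaction term below 0.

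The number of members that differed between genotypes without stimulation depended on the scaling. In control BMDMs 7 members were called higher in Nlrp3-/- (8.86%, against 33.3% of all tested genes) and 6 lower (7.59%, against 14.5%) on the deposited scale. Their median was 0.00, beside 0.09 over all genes. Median-ratio scaling moved the median of all genes by -0.12 and turned the split to 3 higher and 27 lower (34.2%), beside 20.5% and 25.6% of all genes. The number of members above 0 went from 41 as deposited to 11 after scaling. The share of all tested genes below 0 also rose, from 36% to 54.8%. Leaving out Nlrp3-/- control replicate 1 gave 4 members higher, and 2 members were past 2-fold without that library, wild-type control replicate 3 or Nlrp3-/- control replicate 3.

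The members lower in Nlrp3-/- control on both scales were all 4 of complex II together with Uqcrfs1 and Uqcrq. Fewer were called lower in other fits: 4 with the compared groups alone, and 5 with no filter, no trend or a replicate block. For Sdha the log2 difference was -0.18 (adjusted p = 7.46e-04 by limma), for Sdhb -0.17, for Sdhc -0.15 and for Sdhd -0.13 (adjusted p = 0.042 by limma). The values after median-ratio scaling were -0.33, -0.32, -0.30 and -0.28. In each of the 4 genes all wild-type control libraries lay above all Nlrp3-/- control libraries. Uqcrfs1, the Rieske iron-sulfur protein of complex III, was 49.98, 51.3 and 54.9 FPKM in wild-type and 43.3, 44.6 and 42.7 FPKM in Nlrp3-/- control, a log2 difference of -0.25 (adjusted p = 3.01e-04 by limma). Uqcrq, a small subunit near the ubiquinone sites, was 13.97, 16.2 and 18.4 FPKM and 13.5, 12.5 and 11.8 FPKM, a log2 difference of -0.34 (adjusted p = 0.0114 by limma). Neither gene's groups overlapped.

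Among the members higher in Nlrp3-/- control, Ndufa4l2 was past 2-fold on the scale of log2(FPKM + 1), as were 6.71% of all genes, at 1.56 (1.41 after median-ratio scaling, adjusted p = 5.44e-07 by limma). Cox4i2 was 0.632, 0.304 and 0.999 FPKM in wild-type and 1.63, 3.12 and 1.89 FPKM in Nlrp3-/- control, a log2 difference of 0.96 (adjusted p = 0.0109 by limma) but a ratio of means of 3.43. The ratio was 2.31 for Cox6a2, and with a pseudocount of 0.1 in place of 1, 3 members were past 2-fold, or 2 with TPM. With LPS+ATP Cox4i2 was 1.32, 0.475 and 1.82 and 1.33, 2.44 and 1.40 FPKM, where the genotypes overlapped. Cox6a2, which had a mean under 1 FPKM in 2 of the groups and whose exons overlap Itgad on the other strand, had a difference of 0.54 (adjusted p = 0.0282 by limma) that was not called after median-ratio scaling (0.44). Itgad itself was higher in Nlrp3-/- control by 1.12 (adjusted p = 2.02e-07 by limma), and its part in the result was not tested. Ndufs6, a zinc-binding subunit of complex I, was 5.22, 6.54 and 6.11 FPKM in wild-type and 8.18, 8.96 and 7.90 FPKM in Nlrp3-/- control, a log2 difference of 0.43 (adjusted p = 0.0015 by limma). Atp5g1 (0.30), Ndufc2 (0.19) and Atp5b (0.15) were higher on the deposited scale and not called after median-ratio scaling, where Atp5b was at -0.01. The groups of Atp5g1 overlapped, and its call was lost with no filter, in a fit of the compared groups alone, and without wild-type control replicate 1 or 2 (0.24 and 0.23) or Nlrp3-/- control replicate 1 or 3 (0.29 and 0.27).

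Markers of other cells moved with genotype beside these results, as did some macrophage markers, such as Cd68 (means of 1450 and 876.6 FPKM in wild-type and Nlrp3-/- control). All 10 fibroblast markers were higher in Nlrp3-/- BMDMs in both states, with the list summing to 175, 180 and 179 FPKM in wild-type control and to 1292, 1299 and 1281 FPKM in Nlrp3-/- control, and Col1a1 as the most abundant. With LPS+ATP the sums were 204, 208 and 207 FPKM in wild-type and 1001, 994 and 1012 FPKM in Nlrp3-/- BMDMs. The 10 neutrophil markers, of which 9 were tested, summed to 344, 367 and 380 FPKM in wild-type control and to 1885, 1838 and 1838 FPKM in Nlrp3-/- control, led by S100a9, and 9 were higher in Nlrp3-/- control. Sums with LPS+ATP were 331, 343 and 329 FPKM in wild-type and 705, 708 and 714 FPKM in Nlrp3-/- BMDMs, where 8 were higher than in wild-type. Lcn2 held up the wild-type sum, with means of 9.961 FPKM in control and 217.7 FPKM with LPS+ATP (208.2 FPKM in Nlrp3-/- BMDMs), while S100a9 went from 159.7 to 49.86 FPKM and Ngp from 96.28 to 17.57 FPKM. T or NK cell markers summed to at most 3.17 FPKM, B cell markers to at most 5.29, dendritic cell markers to at most 11.8 and erythroid markers to at most 13.2 FPKM, each highest in Nlrp3-/- control, and no defining T cell marker of Cd3d, Cd3e and Cd3g had a group mean above 0.0268 FPKM. The part of other cells in the genotype differences of Ndufa4l2, Cox4i2, complex II and the other members was not tested.

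With LPS+ATP, 24 members were called higher in Nlrp3-/- than in wild-type BMDMs (30.4%, against 35.9% of all tested genes) and 1 lower (1.27%, against 12.6%). The median of the members was 0.14, beside 0.11 over all genes. Median-ratio scaling moved the all-gene median by -0.15 and left 4 members higher and 11 lower (13.9%), beside 22.7% and 27.2% of all genes, with a member median of -0.04. Without wild-type LPS+ATP replicate 1, 14 members were higher and 2 lower, and without wild-type LPS+ATP replicate 3 the count of lower members was 0. By limma 0 members were past 2-fold on the scale of log2(FPKM + 1), also at an unadjusted p under 0.05, against 5.05% of all genes. With a pseudocount of 0.1 there was 1, and the ratio of means of Ndufa4l2 was 2.04. The 4 members higher on both scales were Ndufa4l2, Atp5g1, Atp5g2 and Ndufa8, with log2 differences of 0.85, 0.45, 0.39 and 0.34 (0.71, 0.30, 0.21 and 0.15 after scaling). Atp5g1 was 4.05, 4.09 and 3.58 FPKM in stimulated wild-type and 5.98, 5.79 and 5.33 FPKM in stimulated Nlrp3-/- BMDMs, without overlap (adjusted p = 0.00235 by limma).

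Sdha, lower in Nlrp3-/- control, was higher in Nlrp3-/- BMDMs with LPS+ATP, by 0.26 (adjusted p = 4.73e-05 by limma), a call that median-ratio scaling ended (0.07). Uqcr11 (0.36) and Cox6c (0.30) were the largest called rises of complexes III and IV, and neither was called after either scaling or without wild-type LPS+ATP replicate 1 (0.28 and 0.26). Cox6c was also not called in a fit of the compared groups alone. Leaving out Nlrp3-/- LPS+ATP replicate 1 or 3 also ended the call of Uqcr11, at 0.34 each. Uqcrfs1 was the 1 member lower in Nlrp3-/- BMDMs with LPS+ATP, at 39.5, 39.5 and 41.3 FPKM in wild-type and 37.04, 37.3 and 35.3 FPKM in Nlrp3-/- BMDMs, a log2 difference of -0.13 (adjusted p = 0.018 by limma). Its groups did not overlap and the difference was -0.32 after median-ratio scaling. On the deposited scale its call was lost without replicate 3 of either stimulated group, each at -0.11.

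**Figure D4:**
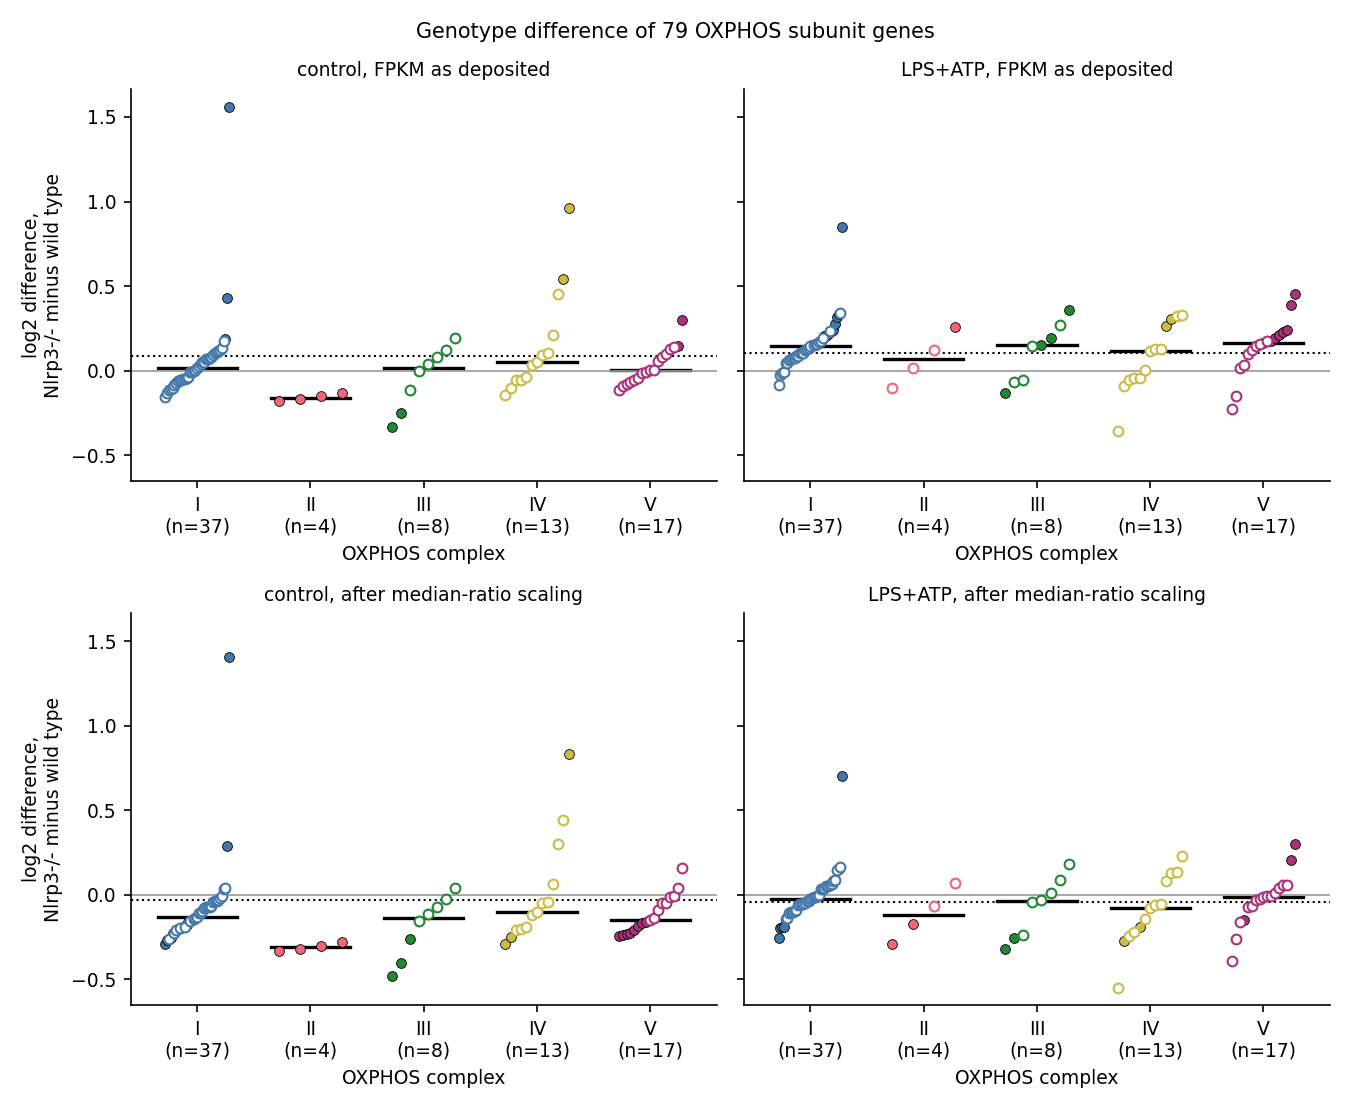
Log2 difference between Nlrp3-/- and wild-type BMDMs of the 79 members by complex, in control (left) and with LPS+ATP (right), on the deposited FPKM (top) and after median-ratio scaling (bottom). Filled points passed an adjusted p under 0.05 by limma, bars are complex medians and dotted lines the median of all tested genes, and the 4 complex II members in control are filled below 0 on both scales.

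Other genes of the OXPHOS system were taken from fixed lists. The 13 subunits encoded by mitochondrial DNA had lower medians than the nuclear members, a difference that was not tested: 12 were called lower and 1 higher in wild-type BMDMs and 13 lower in Nlrp3-/- BMDMs, with medians of -1.19 and -1.18, or -0.86 and -0.89 after median-ratio scaling. Of all tested genes, 53.1% were lower and 23.3% higher in wild-type, and 53.8% and 20.6% in Nlrp3-/- BMDMs, on the deposited scale. mt-Nd3 had the lowest values, -1.63 and -1.48. The rise was of mt-Atp6, listed at 286, 260 and 257 FPKM in wild-type control, 876, 875 and 878 with LPS+ATP, 1769, 1895 and 1853 in Nlrp3-/- control and 914, 869 and 878 with LPS+ATP. The wild-type control libraries stood alone at the low end. mt-Atp8, which overlaps mt-Atp6 in the mitochondrial genome, was 1782, 1520 and 1513 FPKM in wild-type control and 1586, 1692 and 1672 FPKM in Nlrp3-/- control. How fragments in the overlap were counted is not given, so the differences of mt-Atp6 are uncertain. By genotype 8 of the 13 were higher and 1 lower in control (33.3% and 14.5% of all tested genes), and 8 higher with LPS+ATP (35.9% of all tested genes), which became 1 higher and 2 lower, and 2 higher and 2 lower, after scaling.

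Of 15 subunits and carriers outside the naming rule, 11 were lower and 2 higher with stimulation in wild-type BMDMs and 10 lower and 2 higher in Nlrp3-/- BMDMs. The shares of all tested genes were 53.1% and 23.3%, and 53.8% and 20.6%. The medians of the list were -0.84 and -0.45 (-0.51 and -0.16 after scaling). Median-ratio scaling gave 9 lower and 4 higher in wild-type and 8 lower and 4 higher in Nlrp3-/- BMDMs. The shares of all genes were then 35.7% and 35.4%, and 33.0% and 32.6%. Cycs, which encodes the cytochrome c that carries electrons between complexes III and IV, was 11.3, 10.9 and 11.1 FPKM in wild-type control and 32.3, 32.4 and 31.5 FPKM with LPS+ATP, a rise of 1.45 (1.77 after scaling, adjusted p = 1.38e-11 by limma). Its Nlrp3-/- libraries were at 14.5, 13.8 and 14.5 and 28.9, 27.7 and 29.7 FPKM, a rise of 0.97, and the interaction term was -0.49. Ucp2, an uncoupling protein, had the largest falls, -1.79 and -1.61. Nnt, which makes NADPH from the proton gradient, was lower in Nlrp3-/- BMDMs in both states, by -2.27 and -1.47. The methods name different sources for the wild-type and the Nlrp3-/- mice. Effects of genotype, donor sex and mouse source on Nnt cannot be told apart.

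The counts of the other lists stand beside 53.1% lower and 23.3% higher of all tested genes with stimulation in wild-type, and 53.8% and 20.6% in Nlrp3-/- BMDMs. After median-ratio scaling these shares were 35.7% and 35.4%, and 33.0% and 32.6%. Complex I assembly factors had 7 lower and 0 higher by limma (0 at an unadjusted p under 0.05) of 16 tested in wild-type and 8 lower and 2 higher in Nlrp3-/- BMDMs, with medians of -0.21 and -0.27. Ndufaf7 had the lowest value in each, -0.997 and -0.89. Assembly factors of complexes II to V had 17 lower and 7 higher of 35 in wild-type and 16 lower and 5 higher in Nlrp3-/- BMDMs, with medians of -0.22 and -0.18. Higd2a had the largest falls (-1.25 and -0.83), and the largest rises were of Coa5 in wild-type (1.43) and Cox18 in Nlrp3-/- BMDMs (1.16). After median-ratio scaling 4 complex I factors were lower and 3 higher in each genotype, and of the factors for complexes II to V 8 were lower and 13 higher in wild-type and 10 lower and 9 higher in Nlrp3-/- BMDMs. The medians were then 0.01 and -0.06 for complex I and 0.06 and 0.07 for complexes II to V. The list of TCA cycle enzymes also holds Aco1, Idh1 and Mdh1, the cytosolic forms, which act outside the cycle. This mixed list had 15 lower and 2 higher of 21 in wild-type and 16 lower and 2 higher in Nlrp3-/- BMDMs. Its medians were -0.52 and -0.40, and after scaling 11 were lower and 7 higher, and 11 lower and 8 higher. On this list the cytosolic Idh1 had the largest fall in wild-type BMDMs (-1.64), Idh2 in Nlrp3-/- BMDMs (-1.22), and Mdh2 the largest rise in both (0.44 and 0.36).

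Regulators of mitochondrial biogenesis had 14 lower and 6 higher of 26 in wild-type and 18 lower and 4 higher in Nlrp3-/- BMDMs, with medians of -0.22 and -0.28, and after scaling 9 lower and 7 higher, and 8 lower and 4 higher. Pparg fell most (-3.22 and -3.02), Hif1a rose most in wild-type BMDMs (0.91) and Esrra in Nlrp3-/- BMDMs (0.48). Of the 26, 14 were higher in Nlrp3-/- than in wild-type control and 0 lower by limma (0 at an unadjusted p under 0.05), beside 33.3% and 14.5% of all tested genes. After scaling 4 were higher, beside 20.5% of all genes. Mitochondrial ribosomal proteins had 45 lower and 11 higher of 80 in wild-type and 39 lower and 7 higher in Nlrp3-/- BMDMs (medians -0.28 and -0.20), which scaling turned to 23 lower and 24 higher, and 15 lower and 25 higher. The lowest values were -1.13 for Mrpl42 and -1.001 for Mrps25, and the highest 0.75 for Mrpl52 and 0.66 for Mrpl38. Cytosolic ribosomal proteins had 78 lower and 2 higher of 85 in wild-type and 81 lower and 2 higher in Nlrp3-/- BMDMs (medians -0.82 and -0.61), and after scaling 76 lower and 5 higher, and 69 lower and 3 higher, with Rpl10a (-1.63) and Rps29 (-0.94) lowest and Rpl39l (0.48) and Rpl24 (0.28) highest.

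**Figure D5:**
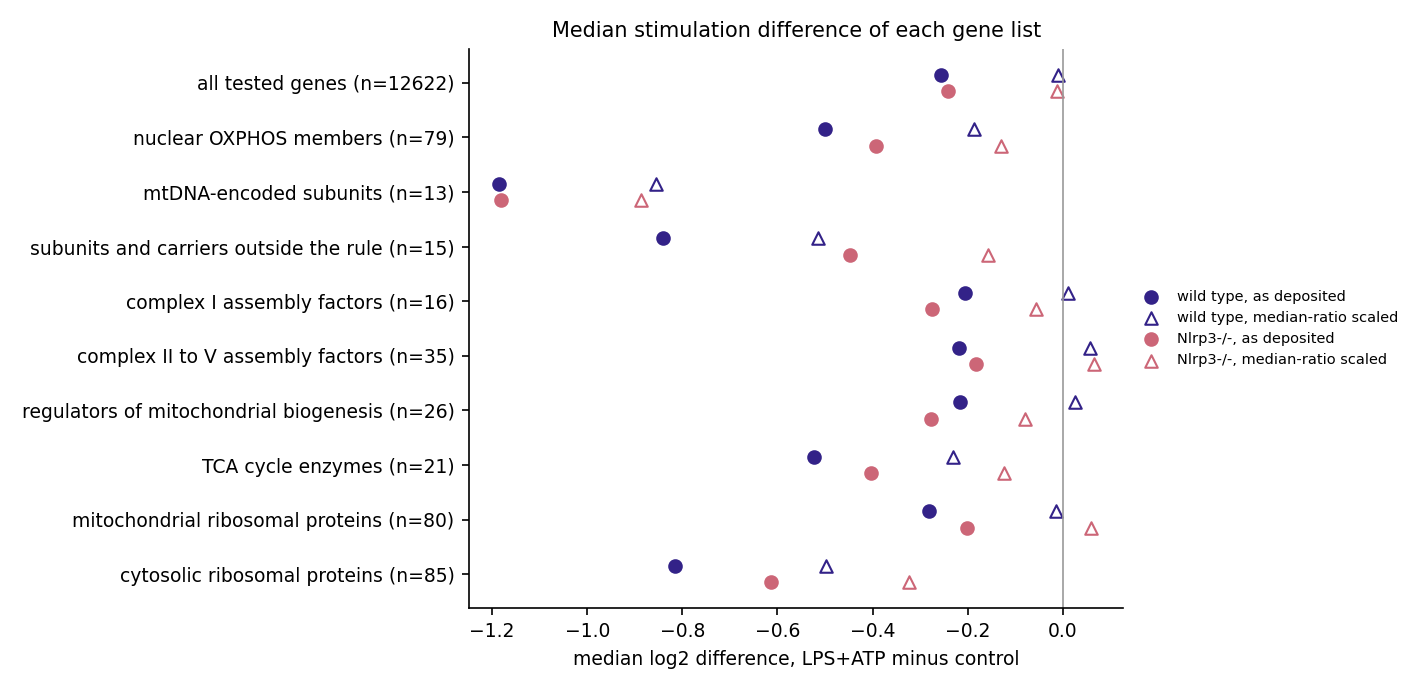
Median log2 difference with LPS+ATP of each gene list (number of tested genes in brackets) in wild-type and Nlrp3-/- BMDMs, on deposited FPKM (circles) and after median-ratio scaling (triangles). The nuclear members lie at -0.50 and -0.39 as deposited, between the mtDNA-encoded subunits at -1.19 and -1.18 and all tested genes at -0.26 and -0.24.

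Some members share sequence or position with other genes. In GENCODE M21, 21 of the 79 matched another gene at 95% identity or more across 20% or more of their longest transcript, and for 6 of them such a gene passed the FPKM limit: Atp5h, Cox4i1, Cox5b, Ndufa13, Ndufb4 and Ndufs5. These matches, called near copies here, were kept on either strand, so some are overlapping neighbours and not duplicated sequence elsewhere. Emc8 for Cox4i1 and Tssk6 for Ndufa13 are antisense genes whose exons overlap the member, as are Smim27 for Ndufb6 and Pdzd9 for Uqcrc2. The copy of Ndufb4, Ndufb4c, had a mean of 13.9 FPKM, above the 3.12 FPKM of Ndufb4. That name is from GENCODE M21. Members were chosen by the symbols deposited with the FPKM, and no member is listed there as Ndufb4c. Exons of 26 members overlapped an antisense gene and those of 5 another gene on the same strand. The strand of the counting is not stated, and tested antisense partners are present for, among others, Ndufa4l2, Ndufa13, Ndufb2, Ndufb11, Ndufs1, Ndufs3, Ndufs6, Cox4i1, Cox6a2, Cox6c and Atp5a1. The partner of Ndufs1, Eef1b2, had a mean of 47.6 FPKM and stimulation differences of -0.90 and -0.65. Among 58 members without a near copy, chosen after the data were seen, 50 were lower with stimulation in wild-type and 49 in Nlrp3-/- BMDMs, with medians of -0.51 and -0.36.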

How the data were processed

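Total RNA was obtained from BMDMs for sequencing, in 12 libraries in 4 groups of 3. The methods describe separation of mRNA with oligo(dT) beads for the tendon insertion samples, and give no separate library protocol for BMDMs. The authors deposited FPKM per gene and library. Their aligner, counting tool and any scaling between libraries are not given in the sources used here, where the submitters' processing notes name GRCm39 and DESeq2 1.24.0. The 12 library columns were matched to samples by name, with 0 left unused. FPKM allows no count test, so the 12622 genes that reached 1 FPKM in 3 or more libraries were tested with limma 3.58.1 (R 4.3.3) on log2(FPKM + 1), with one mean per group and a variance trend. The fit was tested on simulated data, and the outcome is not reported here. Median-ratio and upper-quartile scaling, TPM, no filter or one of 5 FPKM, a pseudocount of 0.1, no trend, a replicate block, the compared groups alone and leaving out each library were the alternatives, and 2 subsets of members were added after seeing the data. Named genes were, by complex, the most abundant member and the called members with the largest rise and fall per comparison, members past 2-fold, members near the FPKM limit, isoform pairs, core complex I subunits and X-linked members, and from each list the called genes with the largest rise and fall. Members named for another reason, such as a called interaction term, were chosen after their values were seen. The values of 1 member, which stayed in all fits and counts, are not reported here. The members and lists were chosen with earlier results of these data known. Near copies and overlaps came from GENCODE M21 (GRCm38) with blastn 2.17.0, and promoters from RefSeq on GRCm38.p6. Plots used Python 3.11.15 and matplotlib 3.10.9.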

Additional observations from a re-analysis of the deposited data

Results flagged for a closer look

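For the members below the difference with LPS+ATP was itself different between the genotypes, by an interaction term with an adjusted p under 0.05 in limma. The terms, on the log2 scale and positive where the fall was smaller in Nlrp3-/- BMDMs, were 0.47 for Atp5g2, 0.44 for Sdha, 0.37 for Ndufb7, 0.32 for Atp5sl, 0.32 for Ndufa8, 0.30 for Atp5h, 0.27 for Ndufs7, 0.27 for Sdhc, 0.27 for Uqcrc1, 0.25 for Atp5a1, 0.24 for Ndufb8 and 0.17 for Atp5o. Ndufa4l2 had a term of -0.71. Positive terms were called for 16.5% of the members, beside 14.7% of all tested genes, and for 12.7% beside 13.1% after median-ratio scaling. After median-ratio scaling the terms of Uqcrc1, Ndufb8 and Atp5o were no longer past the threshold (0.23, 0.21 and 0.13). Genotype goes with donor sex, with the mouse source named in the methods, and with fibroblast, neutrophil and some macrophage markers in these libraries. The part of any of them in these interaction terms was not tested.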

How the results depend on the processing

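Values run in the order stimulation in wild type, stimulation in Nlrp3-/-, genotype in control, genotype with LPS+ATP and interaction. With median-ratio scaling 8, 3, 3, 4 and 10 members were higher and 38, 32, 27, 11 and 2 lower, the first 4 medians were -0.187, -0.129, -0.135 and -0.036, and 0 members were past 2-fold with stimulation in either genotype. With upper-quartile scaling 5, 1, 4, 6 and 8 were higher, 12, 3 and 2 were lower in the genotype comparisons and the interaction, the medians were -0.331 and -0.288 with stimulation and 0.028 for genotype with LPS+ATP, and 0 were past 2-fold with stimulation. Both scalings move all genes by construction. A pseudocount of 0.1 put 8, 2, 3 and 1 members past 2-fold in the first 4 comparisons, and TPM 0 and 2 with stimulation in Nlrp3-/- and genotype in control. With no filter 4 were higher for genotype in control. The cause was not tested. Leaving out single libraries gave 2 to 4, 0, 4 to 9, 14 to 25 and 8 to 14 members higher, and 63 to 69, 60 to 68, 5 to 7, 0 to 2 and 1 to 3 lower. Past 2-fold there were 3 to 6, 1 to 2 and 1 to 2 in the first 3 comparisons. The replicate numbers do not pair libraries (r of same-numbered deviations -0.057 to 0.053), and with replicate number as a block 2, 0, 8, 25 and 12 were higher and 68, 66, 5, 1 and 1 lower. In 2 subsets chosen after seeing the data, 1 member was higher with stimulation in wild type, both in the 58 without a near copy and without Atp5s, Atp5sl, Cox7a2l and Ndufa4l2, where fewer members were counted. The latter left 0 past 2-fold with stimulation in Nlrp3-/- and for genotype in control, and 0 negative interaction terms. For 29 results on single members, 603 values were recomputed: 570 kept their direction and side of the threshold, 33 were no longer past it and 0 reversed. The 29 leave out stimulation of Atp5b in wild type and of Uqcrc1 in Nlrp3-/-. Both turned from called lower to called higher with median-ratio scaling. Depth in reads is unknown, so no limit from counting can be given.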
